A study of Mus musculus with 9 samples.

Results

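Glucocorticoid receptors and responsive genes are described here in the hypothalamus of male mouse pups. The set holds 10 genes of 54532 in the deposited count table, chosen by gene name with earlier results of these data known, so their values in the comparisons below are descriptions. They are the receptor genes Nr3c1 and Nr3c2, the hormone-activating enzyme gene Hsd11b1, and Fkbp5, Zbtb16, Tsc22d3, Sgk1, Plin4, Cdkn1a and Errfi1. All 10 passed the filter on low counts, which kept 17546 genes.

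All pups were wild type males of ICR, an outbred stock, taken on postnatal day 21, and RNA came from hypothalamus. The mothers of HA pups ate a diet rich in fat and sucrose, in which fat gave 45% of the energy, and these pups received 4-PBA, a chemical chaperone. The mothers of HP pups ate the same diet, and the pups received PBS. The mothers of LP pups ate a diet low in fat, which gave 10% of the energy, and the pups also received PBS. Injections were daily on postnatal days 4 to 16, and each group had 3 libraries. Mothers, whose age is given as 5 weeks, began their diet 5 weeks before mating and kept to it through lactation, with 10 pups per litter. Library titles carry a code of unstated meaning. In both HA and HP, replicates 1 and 2 share Hg43 while the third library has Hg13, and LP libraries have Lg42 or Lg63, so code and diet cannot be told apart against LP.

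Total counts per library lay between 18226924 and 21823961. Of 15 markers of hypothalamic neurons, 14 were detected, with summed levels of 737.4 to 779.5 CPM in HA, 749.1 to 865 CPM in HP and 720.2 to 844 CPM in LP (CPM, library-size scaled counts with TMM factors). Kiss1 was at 0 in every library. Some single markers varied more than the sum, relative to their level. Over the 9 libraries Hcrt lay between 51.39 and 152.6 CPM, Pmch between 76.27 and 168.6 CPM and Lhx6 between 3.689 and 24.1 CPM. The 12 markers of meningeal fibroblasts, cells of the brain's covering, had a summed level of 1213 CPM in HA replicate 3 and 627.8 CPM in LP replicate 3, while the other 7 libraries lay between 95.65 and 182.3 CPM. The 8 markers of striatal neurons, cells of a neighbouring brain region, summed to 364.3 and 503 CPM in replicates 1 and 2 of LP, and to between 197.6 and 212.6 CPM in all other libraries.

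Corticosterone, the main glucocorticoid of mice, is released by the adrenal gland at the end of a chain that starts with CRH neurons of the hypothalamus. Inside cells it binds the glucocorticoid receptor and, with higher affinity, the mineralocorticoid receptor, which leave their HSP90 chaperones, enter the nucleus and bind DNA. Their target genes include Fkbp5, whose product lowers the affinity of the receptor for hormone and so closes a feedback loop within the cell. Transcripts of such targets are widely used as a readout of glucocorticoid exposure in brain. Hormone levels were not analysed here.

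The classical binding site of the receptor is a palindrome, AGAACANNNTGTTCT, which reads the same on both strands. It was searched in windows from 250 bases before to 50 bases after each start site, taken from RefSeq on build GRCm38.p6. Windows were found for 8 of the 10 members, 17 in all, because genes such as Sgk1 have several start sites. Of all 32851 windows in the table, 3 held the full palindrome (0.00913%), and 1 of these belongs to Sgk1. The arm AGAACA, or TGTTCT on the other strand, was in 19% of all windows and in 4 of the 17 windows of members, 3 of Sgk1 and 1 of Tsc22d3. Below are the Sgk1 window with the palindrome in capitals, shown because it holds the complete element, and the Tsc22d3 window with its single arm in capitals, shown for contrast.
Sgk1, plus strand, chr10:21993640-21993939: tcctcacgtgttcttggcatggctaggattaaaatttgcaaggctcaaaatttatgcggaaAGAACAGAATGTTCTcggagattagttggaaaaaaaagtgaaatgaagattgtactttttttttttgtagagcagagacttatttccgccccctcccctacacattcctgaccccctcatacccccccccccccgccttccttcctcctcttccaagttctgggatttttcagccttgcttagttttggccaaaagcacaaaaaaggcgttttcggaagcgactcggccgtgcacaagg
Tsc22d3, minus strand, chrX:140600473-140600772: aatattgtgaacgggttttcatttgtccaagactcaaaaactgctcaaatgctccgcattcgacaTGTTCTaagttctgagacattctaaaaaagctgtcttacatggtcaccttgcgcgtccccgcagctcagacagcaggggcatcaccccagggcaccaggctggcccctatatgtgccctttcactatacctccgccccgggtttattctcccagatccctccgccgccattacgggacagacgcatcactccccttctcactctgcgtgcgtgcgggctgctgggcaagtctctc

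The Sgk1 element, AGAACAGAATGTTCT, lies at chr10:21993701-21993715, and its first base is 189 bases before the start site. A match of letters is not evidence of binding in this tissue, and the absence of a match in the other windows says nothing about sites farther away. The counts are per gene and do not tell the start sites of Sgk1 apart.

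Per gene length, the members spanned a wide range of levels. On the deposited FPKM scale (reads scaled by gene length and library size), Tsc22d3, which encodes the anti-inflammatory leucine zipper protein GILZ, had a level of 37.2 ± 3.85 FPKM over the 9 libraries (SD). Sgk1, the serum- and glucocorticoid-regulated kinase gene, followed with a level of 17.2 ± 2.34 FPKM. Cdkn1a, which encodes the cell cycle inhibitor p21, stood at 14.6 ± 1.23 FPKM and Nr3c1, the glucocorticoid receptor gene, at 14.5 ± 0.805 FPKM. Errfi1, an inhibitor of the EGF receptor, stood at 11.4 ± 2.84 FPKM, Zbtb16, a zinc finger transcription factor gene, at 7.11 ± 1.53 FPKM, and Fkbp5 at 5.94 ± 1.52 FPKM. Lowest were Nr3c2, the mineralocorticoid receptor gene (3.26 ± 0.282 FPKM), Hsd11b1 (1.42 ± 0.135 FPKM) and Plin4, a lipid droplet coat gene (0.733 ± 0.325 FPKM). Neighbours in this order overlapped between libraries from Sgk1 down to Nr3c2. Tsc22d3 stood above Sgk1, Nr3c2 above Hsd11b1 and Hsd11b1 above Plin4 in FPKM with no overlap.

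**Figure D1:**
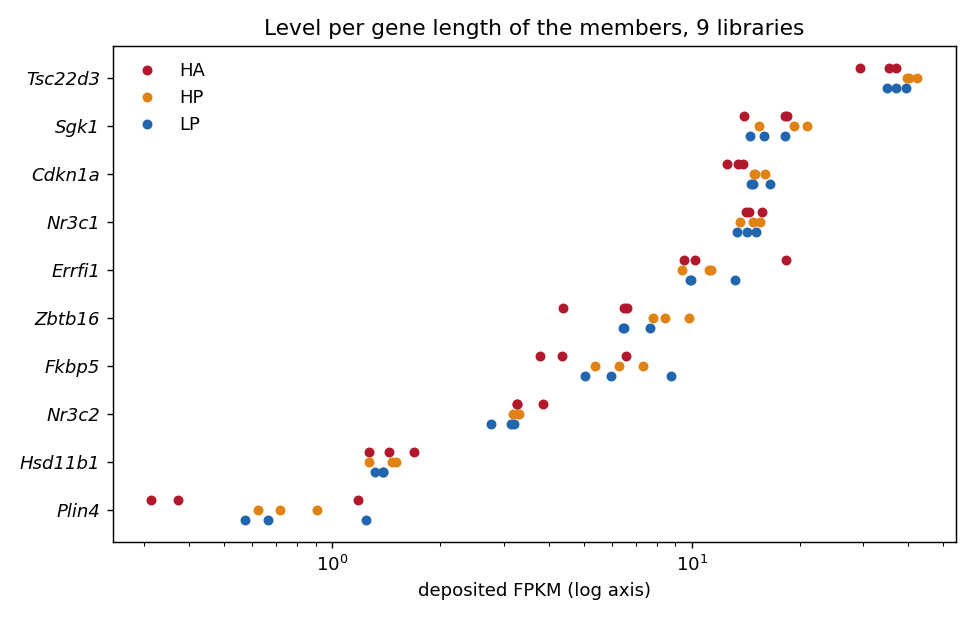
Deposited FPKM (log axis) of the 10 members in each of the 9 libraries, coloured by group, with HA above HP and LP. Tsc22d3 is highest, between 29.26 and 42.31 FPKM, and Plin4 lowest, between 0.3143 and 1.245 FPKM.

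Of the receptor genes, Nr3c1 varied less between libraries than Nr3c2. The coefficient of variation of Nr3c2 was 8.76%, where counting error alone gives 4.92%. Nr3c1 (ENSMUSG00000024431, chromosome 18, 39410545 to 39491301) had 107.5, 105 and 117.1 CPM in HA, 110.4, 115 and 101.2 CPM in HP, and 106, 112.5 and 99.08 CPM in LP. The ranges of all 3 groups overlapped, and its coefficient of variation over the 9 libraries was 5.62%, the smallest of the 10 members. For Nr3c1 the log2 fold change was 0.04 (SE 0.065) in HP against LP and 0.01 (SE 0.065) in HA against HP. Nr3c2 (ENSMUSG00000031618, chromosome 8, 76899442 to 77245012) had 21.22, 21.23 and 25.19 CPM in HA, 21.43, 21.36 and 20.71 CPM in HP, and 17.97, 20.89 and 20.37 CPM in LP. Every HA library lay above every LP library, by a log2 fold change of 0.19 (SE 0.092), and by 0.13 without HA replicate 3 and LP replicate 3. Gm10649, on the other strand, shares 247 exonic bases with Nr3c2 and had 23.2 counts on average, against 412.6 for Nr3c2. Per gene length Nr3c1 stood 4.48 ± 0.326 times as high as Nr3c2 (SD over 9 libraries). This ratio of FPKM levels was 4.26 ± 0.189 in HA, 4.48 ± 0.218 in HP and 4.69 ± 0.451 in LP (SD, n = 3 each), with overlap between the groups. Within the title codes the log2 ratio of HA to HP for Nr3c1 was -0.08 with Hg43 and 0.21 with Hg13, and that for Nr3c2 -0.01 and 0.28.

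Hsd11b1 (ENSMUSG00000016194, chromosome 1, 193221634 to 193264075) encodes the enzyme that regenerates active corticosterone inside cells. It lay between 5.401 and 7.244 CPM in HA, 5.399 and 6.432 CPM in HP, and 5.601 and 5.922 CPM in LP, all overlapping. With 117.9 counts per library on average, counting error alone gives a coefficient of variation of 9.21%, close to the 9.64% measured. Its log2 fold change in HA against HP was 0.05 (SE 0.143), and -0.06 without HA replicate 3 and LP replicate 3. Hsd11b2, the opposing enzyme that inactivates corticosterone, had 43 counts over all 9 libraries and was left out by the filter on low counts.

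Zbtb16, Tsc22d3 and Cdkn1a lay lower in HA than in HP in every library. Zbtb16 (ENSMUSG00000066687, chromosome 9, 48654297 to 48836222) had 23.16, 34.17 and 34.99 CPM in HA, 41.24, 51.94 and 44.76 CPM in HP, and 34.29, 34.21 and 40.37 CPM in LP. HP was above both other groups with no overlap, while HA and LP overlapped. For Zbtb16 the log2 fold change was -0.58 (SE 0.15) in HA against HP and 0.34 (SE 0.149) in HP against LP. With either LP library high in striatal markers (replicate 1 or 2) left out, the second value was 0.30, and it was 0.43 without HA replicate 3 and LP replicate 3.

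Tsc22d3 (ENSMUSG00000031431, chromosome X, 140539528 to 140600659) showed the same order with smaller differences. It had 127.3, 153.2 and 161.1 CPM in HA, 172.9, 174.8 and 184.4 CPM in HP, and 161, 151.8 and 171.2 CPM in LP. The HP libraries again lay above all others, though LP replicate 3 came close to the lowest of them. The log2 fold change of Tsc22d3 was -0.27 (SE 0.08) in HA against HP and 0.14 (SE 0.08) in HP against LP. Without LP replicate 1 it was 0.14 in HP against LP, without LP replicate 2 it was 0.09, and without HA replicate 3 and LP replicate 3 it was 0.18. In LP replicate 3, where both Zbtb16 and Tsc22d3 were the highest of LP, striatal markers summed to 205.5 CPM and meningeal markers to 627.8 CPM. Any part of striatal or meningeal cells in the levels of these 2 genes was not tested. HA against HP and HP against LP share the HP libraries, so a high or low HP library moves both in opposite directions.

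Cdkn1a (ENSMUSG00000023067, chromosome 17, 29090976 to 29100727), which is also a target of p53, lay lowest in HA. It had 44.57, 47.86 and 49.48 CPM in HA, 53.1, 56.92 and 53.6 CPM in HP, and 52.6, 52.07 and 58.7 CPM in LP. HA lay below HP and LP with no overlap, and HP and LP overlapped. Without LP replicate 3, HP lay above LP with no overlap, as did 11% of all genes. Estimated log2 fold changes of Cdkn1a were -0.21 (SE 0.065) in HA against HP, -0.20 (SE 0.065) in HA against LP and 0.00 (SE 0.065) in HP against LP. HA replicate 1 was the lowest of the 9 libraries for Fkbp5, Zbtb16, Tsc22d3 and Cdkn1a alike. AC167363.2, on the other strand, shares 273 exonic bases of 3553 with Cdkn1a and had 10.3 counts on average, against 1016 for Cdkn1a.

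**Figure D2:**
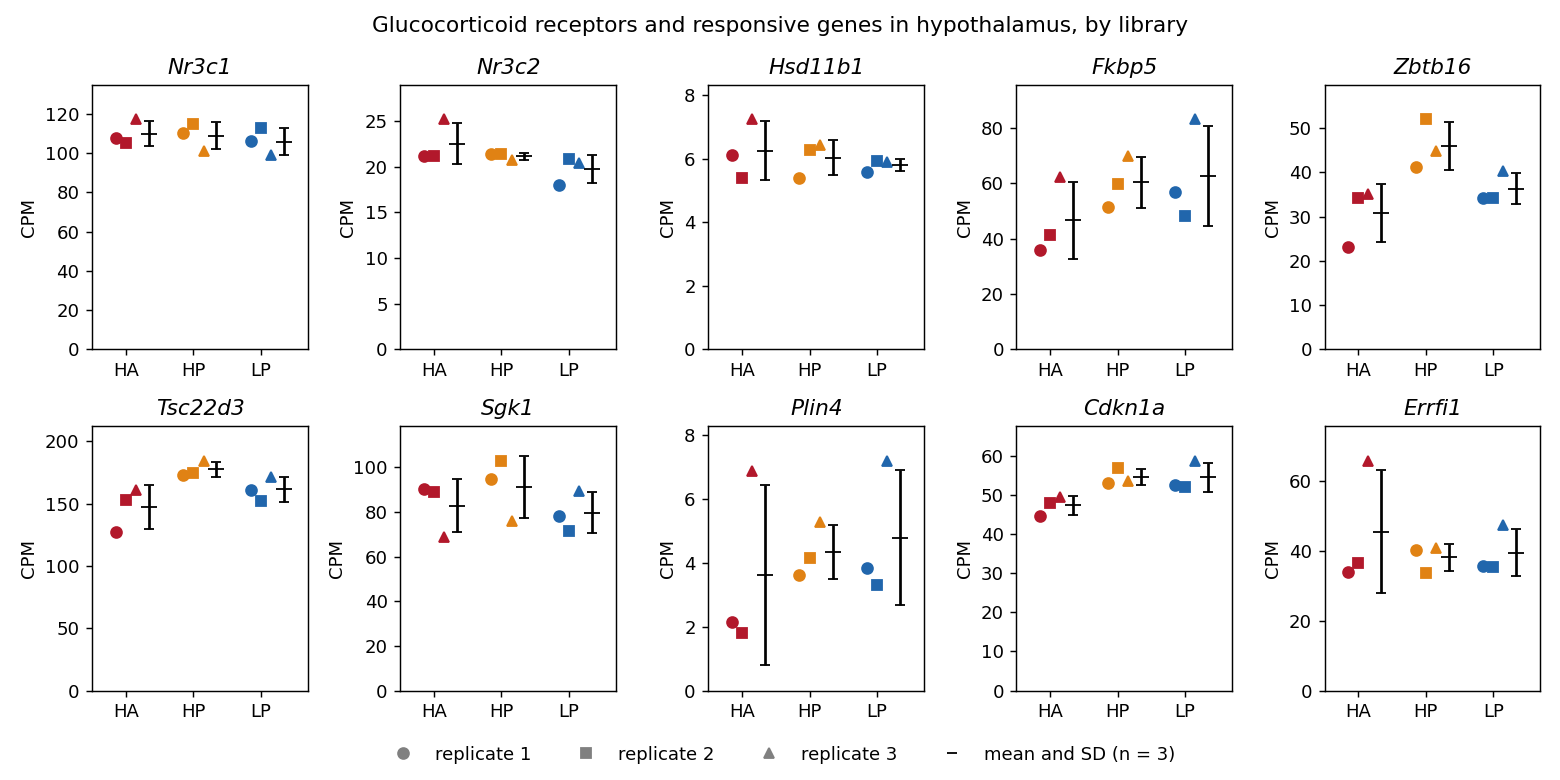
TMM-scaled CPM of each member in HA, HP and LP, with a symbol per replicate and the mean and SD (n = 3) beside each group. Zbtb16, Tsc22d3 and Cdkn1a have all HA libraries below all HP libraries, while Fkbp5, Plin4 and Errfi1 have replicate 3 above replicates 1 and 2 in HA and LP.

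Since every HA library lay below every HP library for these 3 genes, HA had to lie below HP within each title code too. The ratios within codes give only the size of the difference. The log2 ratio of HA to HP for Zbtb16 was -0.70 between the means of the 2 libraries each with code Hg43 and -0.36 between the single libraries with Hg13. For Tsc22d3 it was -0.31 and -0.20, and for Cdkn1a -0.25 and -0.12, with Hg43 given before Hg13. Summed markers of oligodendrocytes, in which bulk RNA cannot tell fewer cells from less RNA per cell, moved in the same direction. All 12 had a lower estimate in HA than in HP, and their sum lay between 12160 and 20580 CPM in HA, 17850 and 21400 CPM in HP, and 13800 and 21420 CPM in LP. All 12 had a higher estimate in HP against LP (median 0.21 on the log2 scale), where Zbtb16 and Tsc22d3 lay higher too. In HA replicate 1, the library lowest in Zbtb16 and Tsc22d3, the sum was 20580 CPM, within the range of HP, and any part of these cells in the result was not tested.

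Relative to their means, Fkbp5, Plin4 and Errfi1 varied most of the members between the libraries of HA and between those of LP. In HP, Errfi1 varied less than Sgk1 and Zbtb16. Fkbp5 (ENSMUSG00000024222, chromosome 17, 28399094 to 28517527) had 35.96, 41.39 and 62.32 CPM in HA, 51.26, 59.71 and 69.7 CPM in HP, and 56.74, 48.04 and 82.95 CPM in LP. Replicate 3 was the highest of each group, and LP replicate 3 the highest of all. Estimated log2 fold changes of Fkbp5 were -0.37 (SE 0.232) in HA against HP, -0.43 (SE 0.232) in HA against LP and -0.05 (SE 0.23) in HP against LP. Without HA replicate 3 and LP replicate 3, the means were 38.67 CPM in HA, 60.23 CPM in HP and 52.39 CPM in LP. HA then lay below both other groups with no overlap, as 12.2% of all genes did against HP and 18.8% against LP. The log2 fold changes of Fkbp5 were then -0.64 in HA against HP, -0.44 in HA against LP and 0.20 in HP against LP. With HA replicate 3 left out, HA holds only code Hg43 while HP keeps its Hg13 library, here and in every setting without it. Code and group are then unbalanced in HA against HP. That Hg13 library, HP replicate 3, was the highest of HP for Fkbp5. Within Hg43 the log2 ratio of HA to HP for Fkbp5 was -0.52.

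Plin4 (ENSMUSG00000002831, chromosome 17, 56100591 to 56109803) had the largest spread of the 10. It had 2.164, 1.818 and 6.871 CPM in HA, 3.618, 4.147 and 5.281 CPM in HP, and 3.848, 3.316 and 7.204 CPM in LP, from 34 to 134 counts. Without HA replicate 3 and LP replicate 3 the mean was 1.991 CPM in HA, 4.349 CPM in HP and 3.582 CPM in LP. The log2 fold change in HA against HP was -0.27 (SE 0.477) with all libraries and -1.12 without these. Set against LP, HA had -0.41 (SE 0.474), and -0.84 without both libraries, -1.25 without HA replicate 3 alone and 0.01 without LP replicate 3 alone. Set against LP, HP had -0.13 (SE 0.471), and 0.28 without LP replicate 3. Plin4 overlaps Hdgfl2 on the other strand by 17 exonic bases of 5777, and Hdgfl2 had 1250 counts on average against 82.11 for Plin4, so reads of the shared bases cannot be assigned without strand.

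Errfi1 (ENSMUSG00000028967, chromosome 4, 150853919 to 150868892) had 34.16, 36.68 and 65.94 CPM in HA, 40.19, 33.64 and 40.79 CPM in HP, and 35.85, 35.49 and 47.36 CPM in LP. HA replicate 3 stood 1.86 times above the mean of the other HA libraries, and LP replicate 3 stood 1.33 times above that of the other LP libraries. The log2 fold change in HA against HP was 0.25 (SE 0.226) with all libraries and -0.11 without HA replicate 3 and LP replicate 3. For Plin4 the corresponding ratios were 3.45 in HA and 2.01 in LP, and for Fkbp5 they were 1.61 and 1.58. Within the title codes, with Hg43 given before Hg13, the log2 ratio of HA to HP was -0.06 and 0.69 for Errfi1, -0.96 and 0.38 for Plin4, and -0.52 and -0.16 for Fkbp5.

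Errfi1 and Plin4 were highest in HA replicate 3 and LP replicate 3, the same libraries that stood highest in summed markers of meningeal fibroblasts. All 12 of those markers were detected, among them Dcn, whose level was 124 CPM in HA replicate 3, 45.37 CPM in LP replicate 3 and at most 20.39 CPM elsewhere. Endothelial markers, all 12 detected, summed to 362.6 to 521.2 CPM in HA, 354.1 to 392.8 CPM in HP and 334.5 to 435.1 CPM in LP. Their sum was highest in HA replicate 3 and LP replicate 3 as well. Single endothelial markers were split in LP, where Itm2a stood at 110.9 CPM in replicate 3 and 72.44 CPM in replicate 2. Cldn5, Pecam1, Ly6c1, Slco1a4, Tek and Emcn were lower in LP replicate 3 than in LP replicate 2, and the other endothelial markers were higher. Mural cell markers, all 10 detected, summed to 240.1 to 440.1 CPM in HA, 251.6 to 270.6 CPM in HP and 210.4 to 246.9 CPM in LP, highest in HA replicate 3. In that library Acta2 stood at 115.5 CPM and Myh11 at 58.64 CPM, against at most 14.3 and 9.139 CPM elsewhere. Pdgfrb, Notch3 and Tagln were also highest there, while Rgs5, Kcnj8, Abcc9, Cspg4 and Higd1b were not. The part of meningeal, endothelial and mural cells in the levels of Fkbp5, Plin4 and Errfi1 was not tested. In HP, too, replicate 3 was the highest library for Fkbp5, Plin4 and Errfi1 and for the meningeal markers, which summed to 103.7, 138.1 and 182.3 CPM.

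**Figure D3:**
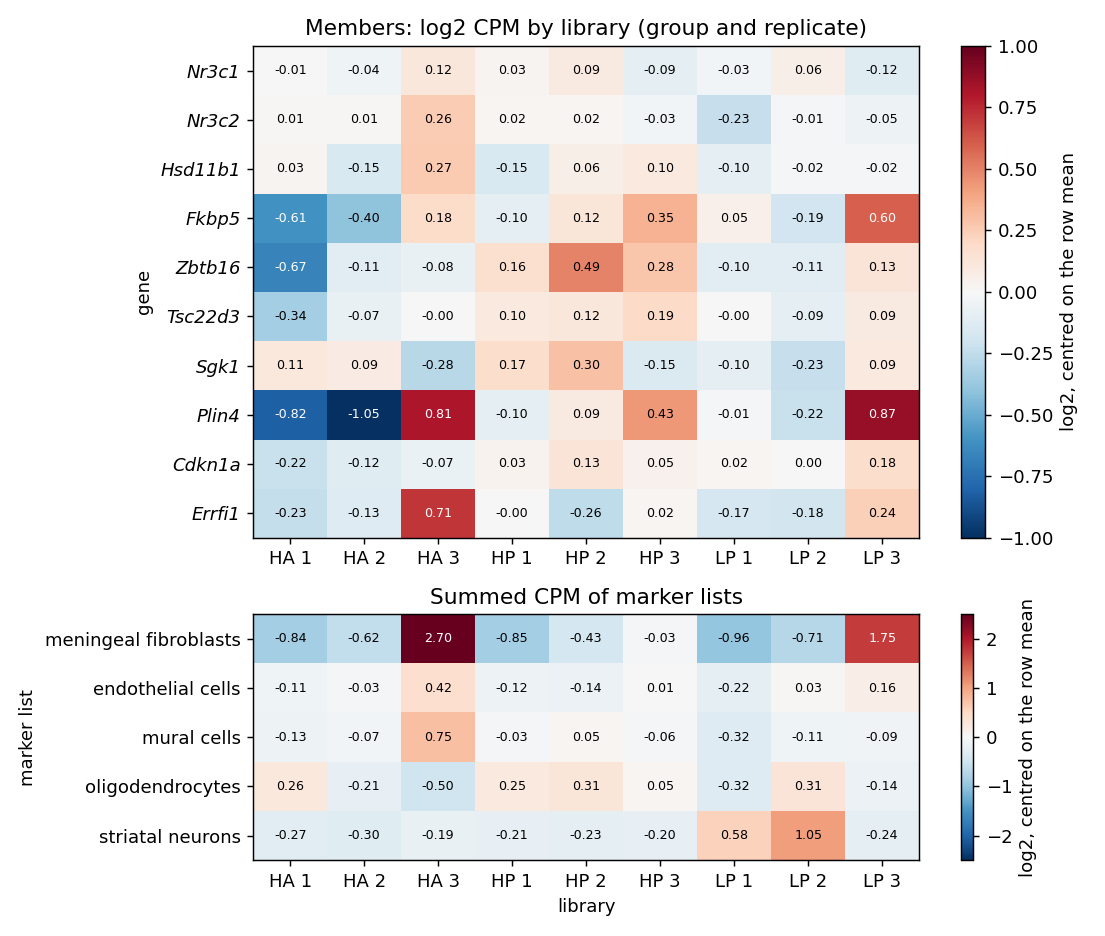
Log2 CPM of each member (top) and log2 of the summed CPM of 5 marker lists (bottom) in the 9 libraries, each row centred on its mean. Plin4 stands at 0.81 in HA replicate 3 and 0.87 in LP replicate 3, and meningeal markers stand at 1.75 in LP replicate 3 and higher still in HA replicate 3.

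Sgk1 (ENSMUSG00000019970, chromosome 10, 21882184 to 21999903), whose windows hold the palindrome shown above, followed another pattern. It had 90.38, 88.92 and 68.97 CPM in HA, 94.51, 102.9 and 75.77 CPM in HP, and 78.22, 71.4 and 89.45 CPM in LP. Replicate 3 was the lowest of HA and of HP and the highest of LP. In HA and HP, replicate 3 is also the library with code Hg13, and the number and the code cannot be told apart. The log2 ratio of HA to HP was -0.14 both within Hg43 and within Hg13, and with all libraries the groups overlapped in every comparison. For Sgk1 the log2 fold change was -0.14 (SE 0.133) in HA against HP, 0.19 (SE 0.133) in HP against LP and 0.06 (SE 0.133) in HA against LP. Without HA replicate 3 and LP replicate 3 these were -0.02, 0.28 and 0.27. In that setting HA holds only Hg43 libraries and HP still holds Hg13, so the value of -0.02 mixes code with group. HA then lay above LP with no overlap, as did 17.4% of all genes. Without HP replicate 3 the log2 fold changes were -0.26, 0.31 and 0.05. HP then lay above both HA and LP with no overlap, as 10.6% of all genes did against HA and 10.9% against LP.

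The fit across all genes (quasi-likelihood F test of edgeR, two-sided, adjusted by Benjamini-Hochberg over 17546 genes, 3 libraries a group) passed 0 of the 10 members in each comparison. In HP against LP it passed 0.0114% of all genes, and the smallest adjusted p of a member was 0.81. In HA against HP it passed 0.0114% of all genes, and the smallest adjusted p of a member was 0.84. In HA against LP it passed 0% of all genes, and the smallest adjusted p of a member was 0.697. DESeq2 and limma-voom also passed 0 members in each comparison. The genes that passed were equally many higher and lower, 0.0057% each in HP against LP and in HA against HP. Before adjustment, 1 member, Zbtb16, had an edgeR p under 0.05 in HP against LP, and it lay higher, as did 3.12% of all genes (6.12% in either direction). In HA against HP 3 members, Zbtb16, Tsc22d3 and Cdkn1a, had one and lay lower, as did 2.42% of all genes (5.42% in either direction). In HA against LP 1 member, Cdkn1a, had one and lay lower, as did 3.45% of all genes, with 3.06% higher and 6.51% in either direction. The labels do not say which litter each pup is from, and each p-value therefore reflects only how these libraries spread.

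Counted by libraries without overlap, 3 of 10 members lay lower in HA than in HP and 0 higher, where 5.89% of all genes lay lower and 5.92% higher. In HP against LP, 2 of 10 lay higher and 0 lower, with 5.93% of all genes higher and 5.83% lower. In HA against LP, 1 lay higher and 1 lower, with 5.4% and 5.51% of all genes. By the sign of the estimate alone, 6 members were lower and 4 higher in HA against HP, where 49.1% of all genes were lower and 50.9% higher. In HP against LP 3 were lower and 7 higher, where 50.9% of all genes were lower and 49.1% higher. In HA against LP 5 were lower and 5 higher, where 48.1% of all genes were lower and 51.9% higher. The members were chosen with such values in view, so nothing is read from these counts. Without HA replicate 3 and LP replicate 3, 5 members lay lower in HA than in HP, namely Fkbp5, Zbtb16, Tsc22d3, Plin4 and Cdkn1a, where 12.2% of all genes did. The median log2 fold change of the 10 members was -0.17 in HA against HP, 0.05 in HP against LP and -0.04 in HA against LP, beside medians of 0.00, 0.00 and 0.01 over all genes.

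**Figure D4:**
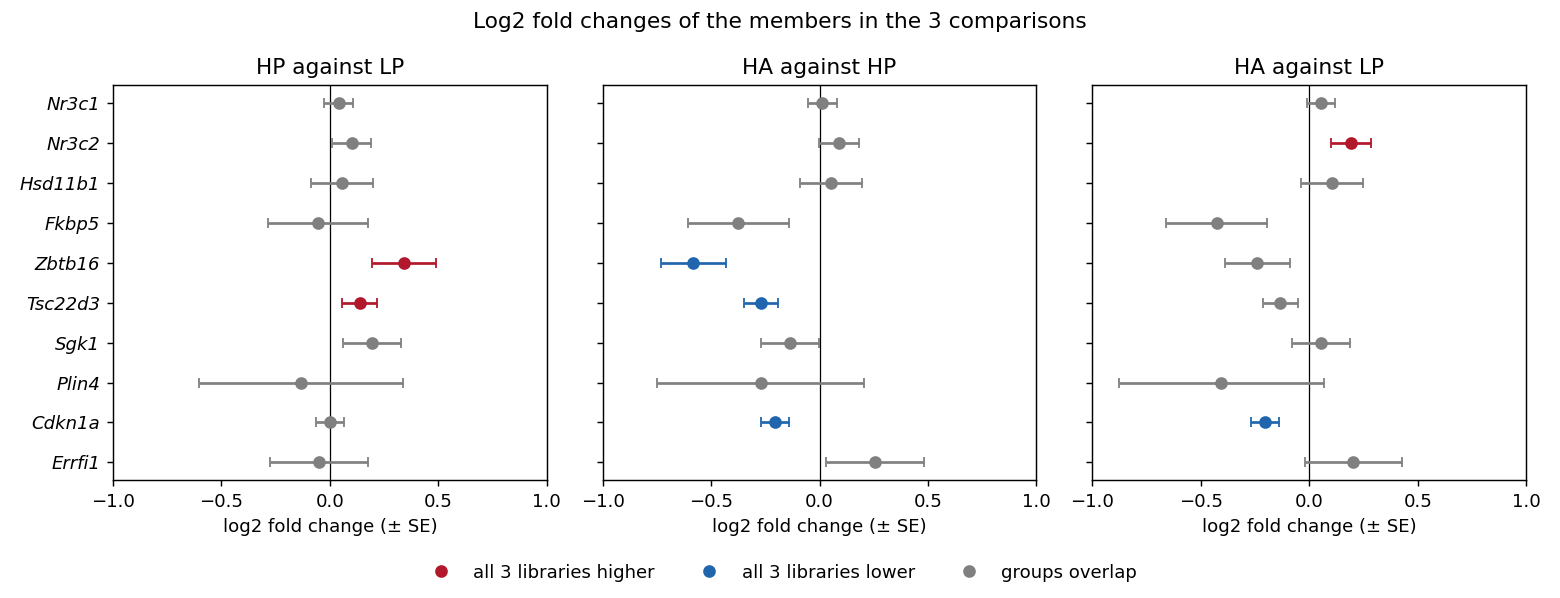
Log2 fold change with SE of each member in the 3 comparisons, the group named first minus the second, coloured where all 3 libraries of the first group lie above or below the second. In HA against HP, Zbtb16, Tsc22d3 and Cdkn1a lie at -0.58, -0.27 and -0.21.

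Other genes of the pathway came from 8 lists that hold 170 genes beside the members, of which 157 passed the filter on low counts. None of the 157 passed in any comparison with edgeR, DESeq2 or limma-voom, and the smallest edgeR adjusted p was 0.324 in HP against LP, 0.566 in HA against HP and 0.645 in HA against LP. An unadjusted p under 0.05 was found for 11, 14 and 11 of them in the same order, or 7.01%, 8.92% and 7.01%, beside 6.12%, 5.42% and 6.51% of all genes tested.

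Upstream of the receptor, Crh, which encodes the peptide that starts the stress hormone axis, had 3.637, 3.422 and 2.344 CPM in HA, 10.46, 3.525 and 4.602 CPM in HP, and 7.452, 7.438 and 2.903 CPM in LP. HP replicate 1 was the highest library and HA replicate 3 the lowest, and the groups overlapped. HP replicate 1 and LP replicates 1 and 2, highest in Crh, were also highest in Lhx6, 1 of the hypothalamic neuron markers. Lhx6 stood there at 24.1, 16.51 and 22.69 CPM, against at most 10.2 CPM elsewhere. Any part of dissection in the level of Crh was not tested. The list of such peptides and receptors had 9 of 13 genes tested, 7 with a lower and 2 with a higher estimate in HA against HP (median -0.15). Avpr1a, a vasopressin receptor gene, averaged 7.585 ± 1.12 CPM in HP and 8.777 ± 0.107 CPM in LP, and 6.981 ± 1.48 CPM in HA (SD, n = 3 each). Crhr2, a CRH receptor gene, averaged 7.173 ± 0.604 CPM in HP and 6.06 ± 1.43 CPM in LP. Adcyap1r1, a receptor gene for the peptide PACAP, averaged 394.7 ± 16.5 CPM in HA and 410.7 ± 8.67 CPM in HP.

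Chaperones and coregulators of the receptors had all 26 listed genes tested, 18 with a higher estimate in HP against LP (median 0.03) and 18 with a lower one in HA against HP (median -0.02). Stip1, which encodes the adaptor that joins HSP70 and HSP90, had 319.6, 308.2 and 299.7 CPM in HP and 270.1, 282.6 and 258.7 CPM in LP, with no overlap (log2 fold change 0.19, SE 0.046, edgeR adjusted p = 0.534). Fkbp4, the close relative of Fkbp5 that favours receptor entry into the nucleus, averaged 232.5 ± 9.11 CPM in HP and 207.6 ± 4.4 CPM in LP (SD, n = 3 each). Ncoa1, a coactivator gene, averaged 91.1 ± 3.66 CPM in HA and 97.9 ± 2.45 CPM in HP, and St13, a cochaperone gene, averaged 196 ± 7.82 CPM in HA and 206.8 ± 7.9 CPM in HP.

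Enzymes of steroid supply and clearance had 14 of 18 listed genes tested. Akr1c14, a hydroxysteroid dehydrogenase gene that acts on reduced steroids, had 3.407, 3.262 and 3.409 CPM in HA, 1.558, 1.503 and 1.673 CPM in HP, and 2.63, 3.174 and 3.924 CPM in LP. HP lay below both other groups with no overlap (edgeR adjusted p = 0.566 in HA against HP and 0.324 in HP against LP). Cyp7b1, a steroid and oxysterol hydroxylase gene, had 8.241, 7.646 and 9.321 CPM in HA, 10.91, 11.51 and 10.35 CPM in HP, and 10.23, 11.23 and 11.56 CPM in LP, with HA below both other groups. Its log2 fold change was -0.38 (SE 0.111) in HA against HP and -0.39 (SE 0.111) in HA against LP, with edgeR adjusted p of 0.84 and 0.645. Srd5a3 averaged 14.63 ± 0.151 CPM in HP and 12.67 ± 0.0913 CPM in LP (SD, n = 3 each).

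The largest list held 46 other genes known to respond to glucocorticoids in various tissues, 45 of them tested. In HA against HP, 21 had a lower and 24 a higher estimate (median 0.05). With no overlap 7 of the 45 lay lower and 1 higher, beside the 5.89% and 5.92% of all genes. With an unadjusted edgeR p under 0.05, 8 of the 45 lay lower and 2 higher, beside 2.42% and 3% of all genes. Such genes numbered 0 lower and 3 higher in HP against LP, and 5 lower and 2 higher in HA against LP. The list was chosen with earlier results known, so nothing is read from these counts. Mt1, a metallothionein gene, had 237.1, 244 and 229.7 CPM in HA and 259.1, 282.5 and 282.5 CPM in HP, and lay between 225.7 and 267.8 CPM in LP. Arrdc3, an arrestin-domain gene, had 46.55, 41.12 and 46.5 CPM in HA and 53.49, 55.15 and 51.98 CPM in HP. In HP against LP 17 genes of the list had a higher and 28 a lower estimate (median -0.03), with Bcl6, a transcriptional repressor gene, at 33.41 ± 2.76 CPM in HP and 27.76 ± 2.03 CPM in LP (SD, n = 3 each). Between HA and LP, Mertk, a receptor gene for the uptake of dead cells, averaged 26.71 ± 3.28 CPM in HA and 34.55 ± 1.51 CPM in LP. Klf4, a transcription factor gene, had 7.09, 8.234 and 13.53 CPM in HA and 5.211, 4.169 and 6.935 CPM in LP, and its highest value in each of these groups was in replicate 3. The log2 fold change of Klf4 was 0.82 (SE 0.251), and 0.71 without HA replicate 3 and LP replicate 3. Tgm2 and Lyve1, chosen after their values were seen, had the largest estimates in HA against HP, 1.18 (SE 0.632) and 1.11 (SE 0.923). Without HA replicate 3 and LP replicate 3 the estimates were -0.10 for Tgm2 and -0.90 for Lyve1. In HA replicate 3 they stood at 32.49 and 10.33 CPM, against at most 8.138 and 2.981 CPM in the other HA and the HP libraries.

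**Figure D5:**
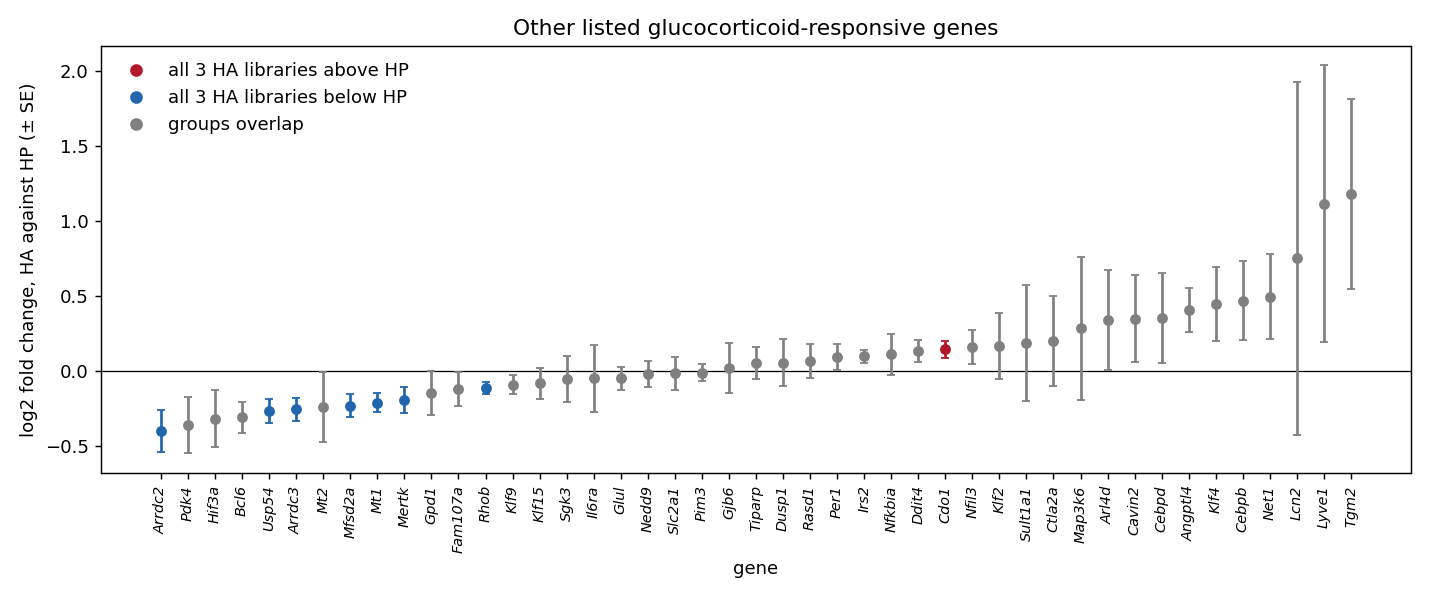
Log2 fold change with SE of the 45 tested genes of this list in HA against HP, ordered by estimate and coloured where groups do not overlap. Estimates run on both sides of 0, with 7 genes whose HA libraries all lie below HP and 1 whose HA libraries all lie above.

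Around single members, the effectors of the mineralocorticoid receptor and of SGK1 had 14 of 16 genes tested, and 0 had an unadjusted p under 0.05 in any comparison. Nedd4l, the ubiquitin ligase gene whose product SGK1 phosphorylates, averaged 92.4 ± 3.34 CPM in HP and 99.68 ± 5.01 CPM in LP (SD, n = 3 each). Scnn1a, a subunit gene of the epithelial sodium channel, averaged 4.391 ± 0.554 CPM in HP and 3.156 ± 0.563 CPM in LP, while Scnn1b and Scnn1g had 22 and 9 counts in all. Lipid droplet genes related to Plin4 had 10 of 12 tested, 0 of them with an unadjusted p under 0.05, and Plin5 averaged 2.959 ± 0.268 CPM in HP and 3.754 ± 0.438 CPM in LP. The p53 pathway, which also drives Cdkn1a, had all 22 genes tested. Aen, a nuclease gene of that pathway, had 31.84, 32.29 and 32.11 CPM in HP and 26.01, 26.53 and 23.76 CPM in LP (edgeR adjusted p = 0.366), and Mdm2 averaged 51.76 ± 2.54 CPM in HA and 56.89 ± 3.72 CPM in HP. ERBB receptors and their feedback genes, the pathway of Errfi1, had all 17 tested and 0 with an unadjusted p under 0.05.

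The tested genes whose pattern over the 9 libraries lay closest to Fkbp5 were Plekhf1, Particl, Tubb6, Gm10039 and Hif3a. Likeness was the root mean square difference of centred log2 CPM, searched over 12289 genes with a mean of at least 5 CPM. It was 0.177 to 0.199 for these 5, against a median of 0.367 over all genes searched and an SD of 0.372 for Fkbp5 itself. Hif3a, which is also on the list of glucocorticoid-responsive genes, had 6.446, 9.411 and 10.76 CPM in HA, 9.406, 11.71 and 12.08 CPM in HP, and 11.74, 12.98 and 15.54 CPM in LP. Gm10039 had its 3 highest values, between 92.2 and 94.44 CPM, in replicate 3 of each group. Closest to Nr3c1 were Chd2, Fat1, Fmr1, Mterf4 and Golga4, with differences of 0.0309 to 0.0358, genes that themselves varied little over the libraries (SD of log2 CPM 0.0663 to 0.0943).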

How the data were processed

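Hypothalamic RNA of 9 pups was sequenced, and the authors deposited raw read counts per gene and FPKM values. A NEBNext Ultra kit, not described as stranded, was used on 3 µg of RNA, per the labels' protocols. HISAT2 2.0.5, featureCounts 1.5.0-p3, DESeq2 1.16.1 and the build mm9 are named in the submitters' processing notes. Of 54409 gene identifiers shared with GENCODE M21, 98.3% had the same start and end on GRCm38, so coordinates are as deposited and read as GRCm38. For Nr3c1, 1 of the 10 members, the annotated end differed from the deposited one. Deposited FPKM over values recomputed from the counts had medians between 0.981 and 1.01.

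Counts were filtered with filterByExpr, scaled by TMM and fitted in edgeR 4.0.16 (R 4.3.3) with group as the only term over all 9 libraries. Log2 fold changes are edgeR estimates, and SE is taken from the estimate and its F statistic. Log2 CPM has a prior count of 2, and fits were tested on simulated data. Alternatives used DESeq2 1.42.0, limma-voom (limma 3.58.1), other scalings, filters and sets of libraries. Libraries of a group differed by a chi-square per degree of freedom of 4.727 to 25.83, so none was a duplicate. Members and lists were chosen with earlier results of these data known. Named genes are the members, the 2 genes of smallest p in each list and comparison, and the 5 genes closest in pattern to Fkbp5 and Nr3c1. Some of the genes this rule takes are given only in counts. Tgm2 and Lyve1, and their fit and that of Klf4 without HA replicate 3 and LP replicate 3, were chosen after seeing the data. Dcn, Hsd11b2, Scnn1b, Scnn1g and the single mural and endothelial cell markers are outside the rule too, and are named for a level. Kiss1, Hcrt, Pmch and Lhx6, named for a level too, are also outside the rule. The overlapping genes Gm10649, AC167363.2 and Hdgfl2 are outside it as well, and are named for an overlap.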

Additional observations from a re-analysis of the deposited data

How the results depend on the processing

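No member and no listed pathway gene passed under any alternative run, and the smallest adjusted p of a member was 0.0626, for Zbtb16 in HA against HP with no filter on low counts.

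The number of genes called over the whole table depended on the setting. In HP against LP it was 2 in the edgeR fit, 32 with DESeq2, 1 with library totals, 53 with no filter, 4 with the replicate block, 4 in the fit to the 2 groups compared, 1 to 21 with 1 library left out (21 without LP replicate 3), and 37 with LP replicate 3 and HA replicate 3 both left out. In HA against HP it was 2, and 8 with DESeq2, 5 with no filter, 1 to 9 with 1 library left out (9 without HA replicate 3) and 10 without both. In HA against LP it was 0, and 27 with DESeq2, 41 with no filter, 1 in the fit to the 2 groups compared, 0 to 14 with 1 library left out (14 without LP replicate 3) and 23 without both. Which genes these were was not followed, and the cause was not tested.

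The number of members lower with no overlap was 3 to 5 in HA against HP (5 without both libraries, where 12.2% of all genes were lower) and 1 to 4 in HA against LP (4 without both, where 18.8% were lower). The number higher was 2 to 4 in HP against LP (4 without HP replicate 3, where 10.9% of all genes were higher) and 1 to 2 in HA against LP (2 without both, where 17.4% were higher). With fewer libraries more genes are free of overlap by construction.

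Replicate numbers are shared between groups, and same-numbered libraries did not all deviate together (correlations of -0.0276 to 0.486). Such correlations cannot show whether animals were paired. With the replicate block 0 members were called. Over all alternatives the log2 fold change of Zbtb16 in HA against HP lay between -0.68 and -0.42, that of Tsc22d3 between -0.34 and -0.18 and that of Cdkn1a between -0.24 and -0.17. That of Fkbp5 lay between -0.64 and -0.22 and that of Plin4 between -1.12 (without HA replicate 3) and 0.05 (without HA replicate 2). For Zbtb16, Tsc22d3, Cdkn1a and Fkbp5 the value nearest 0 came without HA replicate 1. Counting error alone gives Plin4 a coefficient of variation of 11%, against 44.3% measured, and gives Hsd11b1 9.21%, against 9.64% measured.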
